A study of Rattus norvegicus with 4 samples.

Results

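Strong peaks of the transcription factor YY1 that were called only in nonirradiated rat skin are described here. A region was taken when it stood in the nonirradiated peak list with a deposited score of 100 or more, lay on chromosomes 1 to 20, and had no peak of the irradiated list within 1 kb. The rule found 638 regions among the 9318 autosomal peaks of the nonirradiated list (6.85%), which held 9502 peaks in all. Together the 638 regions covered 326.6 kb. They are called strong nonirradiated-only peaks below, and the other 8680 autosomal peaks of the same list are called the other peaks.

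The series compared 2 skin conditions by chromatin immunoprecipitation and sequencing (ChIP-seq), which recovers and reads the DNA bound by a protein. Skin came from male Sprague-Dawley rats, an outbred stock, with a labelled age of 4 weeks. One group had a single electron-beam dose of 45 Gy to the skin, and the comparison group was skin from an area that was not irradiated. No other agent, allele or genotype is labelled. Each condition gave a single immunoprecipitated library and a single input library, made from chromatin without the antibody step. In the titles, irradiated libraries are prefixed NC and nonirradiated ones Norm. These prefixes are not defined, so the groups rest on the tissue source in the labels, and "irradiated" below means the libraries so labelled. NC can also stand for a negative control. If it did so here, the names of the groups would not hold, and the regions would not be specific to nonirradiated skin. The labels used here state neither how many animals went into a library nor how long after irradiation skin was taken. Whole skin holds several cell types, and fewer cells with a bound site cannot be told apart from less binding per cell.

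YY1 is a zinc-finger protein found in most cell types. It is named for acting both as an activator and as a repressor of transcription, and it is known to sit at promoters and enhancers and to help bring them together. The series title places the study in skin fibrosis caused by radiation, a scarring in which fibroblasts deposit extracellular matrix.

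For every peak the authors deposited its start, its end and a score. The score rises as the p-value of the peak falls, and its lowest value of 50 matches a p of 1e-05. It grows with sequencing depth, which is unknown here, so scores cannot be compared across libraries. Because the regions were chosen by score and by distance to the irradiated list, their scores, widths and distances are given as descriptions without a test. With 1 ChIP library per condition no value has a replicate check. The intervals below are 95% intervals (Wilson for a share, order statistics for a median). Beside a count of 0, the limit given is the share that 3 counts would make. Intervals and limits cover counting error only and treat peaks as independent, which neighbouring peaks may not be. Positions are on the rat build rn5, 1-based. No rn5 sequence or annotation was used here, so genes, exons and DNA sequences at these regions were not analysed here.

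The absence of a nearby irradiated peak was about as frequent among weak peaks as among strong ones. Of the 657 autosomal peaks with a score of 100 or more (7.05% of the 9318), 638 had no irradiated peak within 1 kb (97.1%). Of the 8661 autosomal peaks scoring under 100, 8419 had none (97.2%). These shares are close, so the lack of a counterpart is not in itself a feature of the strong peaks. A missing peak also does not show missing YY1, since read coverage was not analysed here.

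The distance limit left out 19 strong autosomal peaks, of which 8 shared bases with an irradiated peak. The highest of the 19 was chr2:5527430-5528284, with a score of 1286.99 and a width of 855 bases. An irradiated peak of score 57.05 lay 527 bases from it. The next was chr1:132834794-132835282, with a score of 339.21, which lay 119 bases from an irradiated peak of score 61.39. The excluded peak farthest from its irradiated neighbour was chr17:67879795-67880087, at 907 bases. On the other side of the limit, the nearest regions kept were chr7:104583163-104583533 at 1010 bases (score 177.26), chr3:2144160-2144639 at 1075 bases (113.81) and chr13:49513444-49513697 at 1184 bases (120.61). The restriction to autosomes left out another 20 peaks of this score on the X chromosome, which held 184 peaks in all.

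At the score limit the list was continuous. Just inside it were chr8:121587927-121588654 with a score of exactly 100 (728 bases), chr3:181072615-181073232 with 100.02 (618 bases) and chr2:195932222-195932926 with 100.04 (705 bases). Just under it were chr17:87278030-87278495 with 99.83 (466 bases), chr19:68607276-68607842 with 99.78 (567 bases) and chr4:52186719-52187286 with 99.63 (568 bases). These neighbours of the limit differ by fractions of a score unit, so the limit is a working choice and not a break in the data.

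Most strong nonirradiated-only peaks lay close to the limit, and a small part formed a long tail. The median score was 120.61, the quartiles spanned 106.947 to 148.17 (lower to upper quartile), and the highest score was 3206.1. Scores of 100 to under 150 were held by 495 regions (77.6%, interval 74.2 to 80.7). Another 71 (11.1%, 8.92 to 13.8) scored 150 to under 300. The tail held 46 regions (7.21%, 5.45 to 9.48) from 300 to under 1000 and 26 (4.08%, 2.80 to 5.90) of 1000 or more. Between the highest score under 300, which was 287.49, and the lowest above it, 316.52, there was no region. The counterpart set in irradiated skin, chosen the same way with the lists exchanged, held 2678 regions, of which 4 scored 300 or more (0.149%, 0.0581 to 0.383). In the nonirradiated set 72 of 638 did so (11.3%, 9.06 to 14.0), although the score scales differ between the libraries and the shares cannot be read as a difference in binding. Among the 19 strong peaks left out by the distance limit, the highest scores were 1286.99, 339.21 and 185.82. Scores of 300 or more were thus not limited to the nonirradiated-only set.

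**Figure D1:**
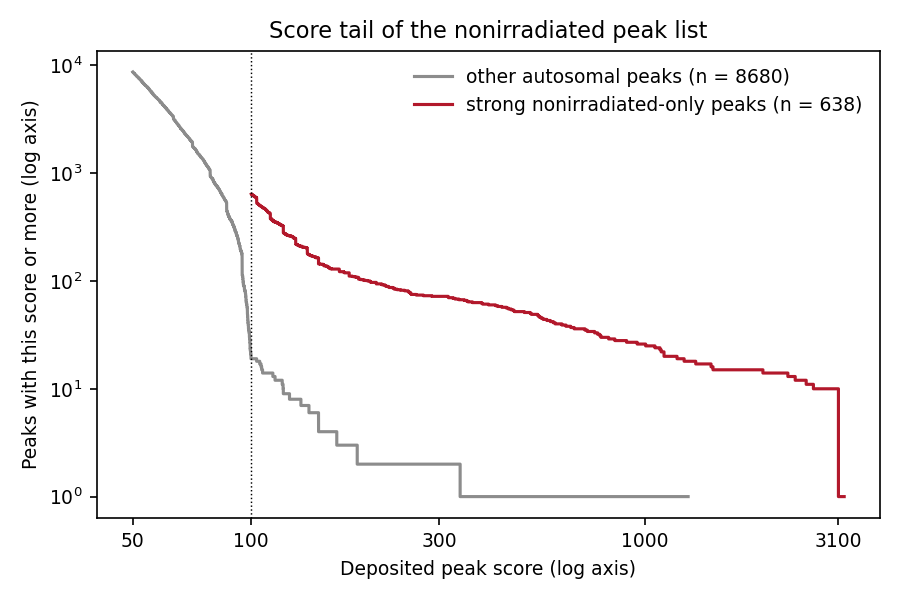
Number of nonirradiated autosomal peaks (vertical, log axis) with at least the deposited score on the horizontal log axis, for the 638 strong nonirradiated-only peaks (red) and the other 8680 autosomal peaks (grey); the dotted line marks the score limit of 100. The red curve flattens between about 200 (100 regions) and 1000 (26 regions) and drops at 3100, a score shared by 9 regions, while 19 grey peaks pass the limit.

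Shares at other score levels show the shape of the tail. A score of 200 or more was reached by 100 regions (15.7%, 13.1 to 18.7), 500 or more by 51 (7.99%, 6.13 to 10.4) and 2000 or more by 14 (2.19%, 1.31 to 3.65). From 300 to 1000 the number fell from 72 to 26, whereas from 100 to 300 it fell from 638 to 72.

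The 12 highest-scoring regions lay on 7 chromosomes, 3 of them on chromosome 1. The top score of 3206.1 belonged to chr2:218529729-218530463, a peak of 735 bases. Its nearest irradiated peak, of score 54.29, was 20.6 kb away, and its nearest neighbour in its own list was 483 kb away. A score of exactly 3100 was shared by 9 regions on 5 chromosomes, so the score does not order these 9. The value 3100 was not the highest of the set, which was 3206.1. Why 9 regions share it, and whether their peaks are weaker than that at 3206.1, was not tested. Widths of the 9 ran from 532 to 1290 bases with a median of 862.

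Chromosome 15 held 2 of the 9, at chr15:81667735-81669024 (1290 bases, 275 kb from the nearest irradiated peak) and chr15:31738452-31739359 (908 bases, 110 kb away). The second lay where the irradiated list was dense, with 17 irradiated peaks within 500 kb, while the first had 3. Chromosome 4 held chr4:246164280-246165205 (926 bases, 33.8 kb) and chr4:25911303-25911948 (646 bases, 381 kb). On chromosome 1 were chr1:37757923-37758784 (862 bases, 147 kb) and chr1:96299624-96300429 (806 bases, 9.39 kb), the latter with the shortest distance to an irradiated peak of the 9. Chromosome 6 held chr6:8714823-8715585 (763 bases, 156 kb) and chr6:97372309-97372840 (532 bases, 131 kb). The remaining one was chr7:116205589-116206609 (1021 bases, 53.5 kb). No 2 of these 9 regions were neighbours, and every nearest peak in their own list scored under 80.

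Below the shared score came chr9:57340728-57341442, with a score of 2677.97 and a width of 715 bases. It had no other nonirradiated peak within 500 kb and lay 442 kb from an irradiated peak, the largest such distance among the 72 regions of 300 or more. The next, chr1:263539-264707, scored 2567.4 over 1169 bases and lay 263.5 kb from the start of chromosome 1.

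High-scoring regions thus stood among ordinary neighbours. For the 26 regions of 1000 or more, the nearest peak in the same list had a median score of 60.58, the value found for the other peaks too. The nearest neighbour was itself a strong peak (score of 100 or more) for 2 of these 26 (7.69%, 2.14 to 24.1) and for 610 of the other 8680 peaks (7.03%, 6.51 to 7.59). For all 638 regions it was so in 38 cases (5.96%, 4.37 to 8.07), and for the 72 regions of 300 or more in 8 (11.1%, 5.74 to 20.4). These intervals overlap.

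Widths of the strong nonirradiated-only peaks were spread over narrow, intermediate and wide regions in similar numbers. Their median width was 402 bases (interval 368 to 461), against 539 (535 to 542) for the other peaks. The medians hide the shape of the distribution, which was wider on both sides. Regions under 300 bases numbered 199 of 638 (31.2%, 27.7 to 34.9), against 68 of 8680 other peaks (0.783%, 0.619 to 0.992). At 600 bases or more there were 210 of 638 (32.9%, 29.4 to 36.7) and 2431 of 8680 (28.0%, 27.1 to 29.0). Intermediate widths of 300 to 599 bases were the largest class of the strong set, with 229 regions (35.9%, 32.3 to 39.7), and made up 71.2% (70.3 to 72.2) of the others. Quartiles were 281 and 675 bases in the strong set and 452 and 615 in the others. All but 19 of the other peaks scored under 100, so these contrasts are mainly between strong and weak peaks. Of those 19, which had an irradiated peak within 1 kb, 3 were under 300 bases (15.8%, 5.52 to 37.6). At 600 bases or more there were 9 of the 19 (47.4%, 27.3 to 68.3). Both intervals are wide and overlap those of the strong nonirradiated-only peaks.

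The direction of the difference in median width turned with the score minimum. At a minimum of 150 the median was 612 bases (143 regions) and at 200 it was 659 (100 regions), both above the 535 bases of the peaks then left in the comparison. Within the set, the median was 364 bases (343 to 386) at scores of 100 to under 150, 426 (327 to 596) at 150 to under 300, 652.5 (595 to 769) at 300 to under 1000 and 749 (654 to 908) at 1000 or more. Narrow regions under 300 bases were 173 of 495 in the lowest class (34.9%), 24 of 71 in the next (33.8%), 2 of 46 in the third (4.35%) and 0 of 26 in the highest, where a count of 0 allows a share of up to 11.5% (3 counts of 26).

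**Figure D2:**
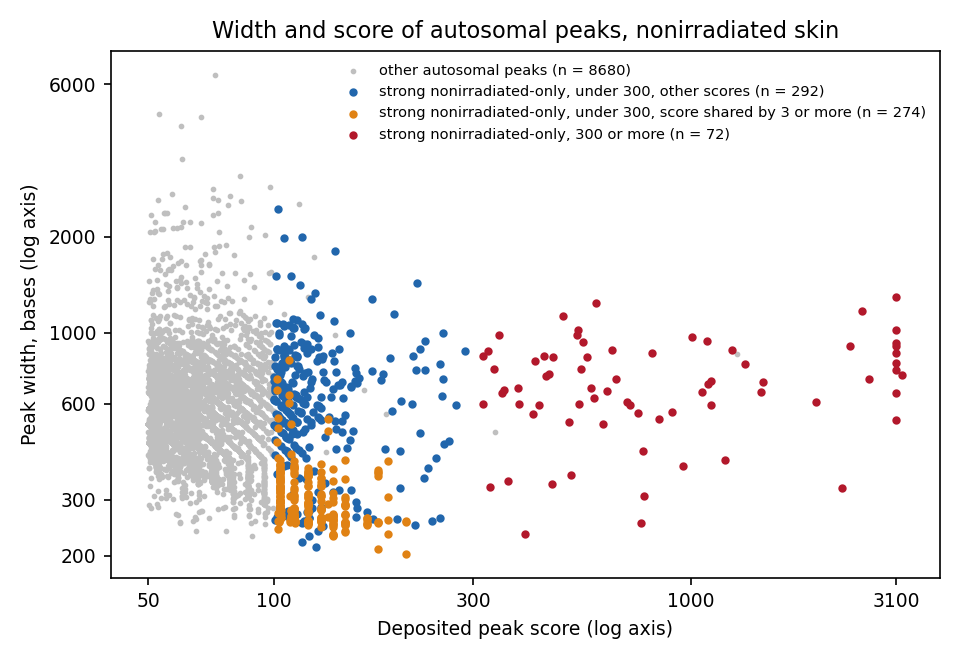
Peak width in bases against deposited score, both on log axes, for the other 8680 autosomal peaks (grey) and for the strong nonirradiated-only peaks, split into 292 regions under a score of 300 with a score of their own or shared by 1 other (blue), 274 under 300 whose score 3 or more regions share (orange) and 72 of 300 or more (red). Orange points stand in vertical columns at a median width of 283.5 bases, while the blue and red medians are 621.5 and 695.5 bases.

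Most of the narrow regions (165 of 199) carried a score that several regions shared. Among the 638 regions there were 363 distinct scores. A score that no other region of the set had was held by 331, while 283 regions had 1 of 20 scores shared by 3 or more. Leaving aside the 9 at 3100, the 274 regions with a shared score had a median width of 283.5 bases (278 to 292), and 165 of them were narrow (60.2%, 54.3 to 65.8). The 292 regions under a score of 300 without such a score had a median of 621.5 bases (588 to 656), and 32 (11.0%, 7.87 to 15.1) were under 300 bases. This split by shared scores was chosen after the values had been seen.

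The most frequent shared scores were 103.17 with 64 regions, 120.61 with 43 and 111.79 with 42. They were followed by 129.61 with 25, 138.81 with 22 and 148.17 with 19. Regions on the same score lay on many chromosomes, with the 64 at 103.17 on 19 and the 19 at 148.17 on 11. Whether they share a repeated sequence was not tested. Median widths on these steps were 318 bases at 103.17, 275.5 at 111.79, 289 at 120.61, 283 at 129.61, 261 at 138.81 and 269 at 148.17. No region on these 6 scores was wider than 400 bases. The other 13 shared scores under 300 were held by 3 to 8 regions each and did not follow 1 order. Their medians ran from 255 bases at 112.63 and at 207.72 to 638 at 108.9 and 661 at 101.51, and that at 177.26 was 305.5. Across the 274 regions, score and width had a Spearman correlation of −0.362, against −0.0911 over the 292 without a shared score, 0.153 over the 72 of 300 or more and −0.0394 over the other 8680 peaks. All of these points come from 1 library, and no p-value is given.

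Repeated scores were not limited to the strong regions. Under the limit, 148 peaks had a score of 70.88, 141 had 63.42, 121 had 78.6, 83 had 86.56, 68 had 56.23, 62 had 94.76 and 51 had 53.1. Their median widths were 362, 382, 356, 333, 397, 331.5 and 507 bases in the same order. Medians of these 7 scores ran from 507 bases at the lowest score to 331.5 at the highest, and all lay above those of the 6 frequent scores over the limit.

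**Figure D3:**
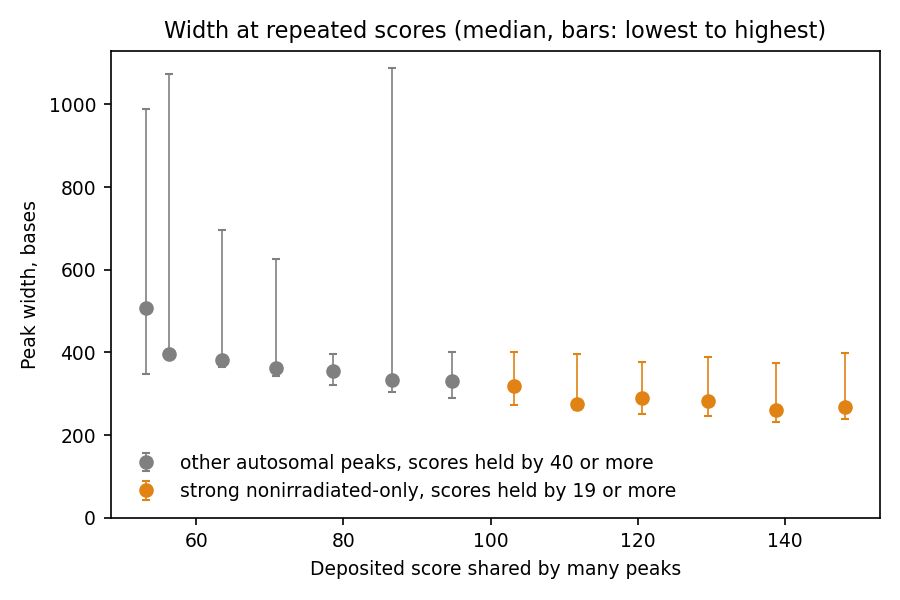
Peak width in bases (median, bars from the lowest to the highest) at scores shared by 40 or more other peaks under 100 (grey) and at the 6 scores shared by 19 or more strong nonirradiated-only peaks from 103.17 to 148.17 (orange). Medians run from 507 bases at a score of 53.1 to 269 at 148.17, and no orange bar passes 400 bases.

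The widest regions named here scored under the median score of the set, 120.61, and the narrowest named here scored above it. The widest region was chr2:209706158-209708592, at 2435 bases with a score of 102.2. It was followed by chr15:9163946-9165933 (1988 bases, score 116.61) and chr14:31174065-31176036 (1972 bases, score 105.65). The narrowest were chr2:139169511-139169713 (203 bases, score 207.72), chr5:83782834-83783044 (211 bases, score 177.26) and chr16:83802772-83802984 (213 bases, score 126.2). The first and second of these narrow regions had shared scores. The set of strong irradiated-only regions was narrow to a larger extent, with a median of 269 bases (quartiles 250 and 353) and 1754 of 2678 under 300 bases (65.5%, 63.7 to 67.3). The same score limit was used in both lists, although scores cannot be compared across libraries and median width changed with the score minimum. These widths therefore cannot be read as a difference between the conditions.

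Strong nonirradiated-only peaks lay at distances from irradiated peaks much like those of other unmatched peaks. Their median distance to the nearest irradiated peak was 54.5 kb (46.4 to 60.8), with quartiles of 21.01 and 119 kb. Over the 8419 other peaks that also lay more than 1 kb away, it was 52.9 kb (51.5 to 54.5), with quartiles of 22.1 and 109 kb. An irradiated peak within 10 kb was found for 73 of 638 (11.4%, 9.20 to 14.2) and for 978 of 8419 (11.6%, 11.0 to 12.3). More than 200 kb away were 9.56% of the strong regions and 8.39% of the others. The intervals of the medians and of the shares within 10 kb overlap.

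Distances varied with score inside the set, with wide intervals. The median was 53.9 kb (45.8 to 60.4) at scores of 100 to under 150 and 42.4 kb (27.4 to 68.7) at 150 to under 300. Regions of 300 or more had a median of 76.1 kb (43.5 to 109), and those of 1000 or more had 89.7 kb (33.0 to 136). All of these intervals overlap one another and that of the whole set.

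The farthest region was chr1:118459252-118459734 (score 110.24, 483 bases), 1011 kb from the nearest irradiated peak. It had no peak of either list within 500 kb. The next were a pair of neighbours on chromosome 10, chr10:50770086-50770876 (score 106.2, 791 bases) at 577 kb and chr10:50744636-50745065 (score 106.09, 430 bases) at 551 kb. They lay 25.02 kb from each other, and neither had an irradiated peak within 500 kb.

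**Figure D4:**
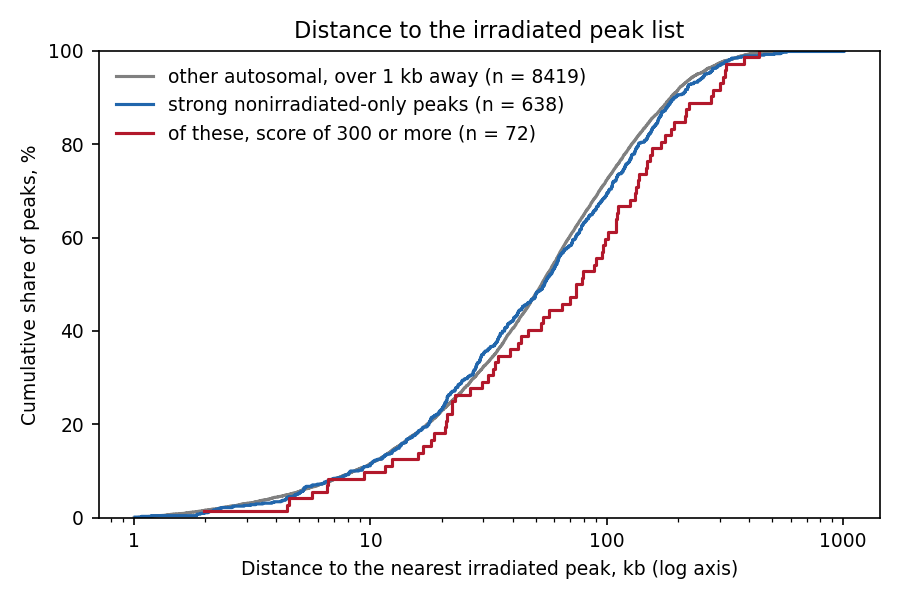
Cumulative share of peaks in percent against the distance to the nearest irradiated peak in kb (log axis), for the 638 strong nonirradiated-only peaks (blue), the 72 of these with a score of 300 or more (red) and the other 8419 autosomal peaks over 1 kb away (grey). Blue and grey run close together with medians of 54.5 and 52.9 kb, and the red curve lies mostly to the right with a median of 76.1 kb.

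The irradiated peaks nearest to these regions were ordinary ones. Their median score was 67.8 (66.0 to 69.8), against 68.1 (67.9 to 69.1) for those nearest to the other unmatched peaks, and their median width was 481.5 bases (469 to 496) against 483 (477 to 487). The surroundings were as densely filled with peaks. Within 500 kb the median number of irradiated peaks was 6 (6 to 6) in both sets, and that of nonirradiated peaks was 3 (3 to 4) in both.

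Spacing within the nonirradiated list was similar for the strong regions and the other peaks. The nearest peak of the same list lay at a median of 92.3 kb (81.3 to 99.3) from a strong region and 92.4 kb (88.6 to 95.1) from another peak. A neighbour within 10 kb was found for 57 regions (8.93%, 6.96 to 11.4) and for 714 other peaks (8.23%, 7.67 to 8.82). Within 1 kb the numbers were 9 (1.41%, 0.744 to 2.66) and 89 (1.03%, 0.834 to 1.26). For the 26 regions of 1000 or more, none had a neighbour within 10 kb, which allows up to 11.5% (3 counts of 26).

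Strong nonirradiated-only peaks seldom stood next to each other. The median distance from a region to the next one of the set was 1.74 Mb (quartiles 0.675 and 3.19 Mb), and the largest was 22.9 Mb. Within 100 kb of another were 28 regions (4.39%, 3.05 to 6.27), and within 10 kb only 2 (0.313%, 0.0860 to 1.14). These 2 formed the closest pair, chr15:15240780-15241097 (score 103.17, 318 bases) and chr15:15244518-15245033 (score 615.06, 516 bases), 3420 bases apart. In the second pair both scores were high: chr7:99746402-99747001 scored 539.81 and chr7:99762039-99762692 scored 1471.63, at a distance of 15.0 kb. The chromosome 10 pair given above, 25.02 kb apart, was the third. The set is sparser than the list, so these distances are not comparable with those to any nonirradiated peak. No equally sparse set of other peaks was measured, so wide spacing is not shown to be a trait of the set.

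Near chromosome ends the share of strong nonirradiated-only peaks was higher than that of the other peaks at each distance counted. An end was taken as position 1 or the last peak of either list, since chromosome lengths were not used here. Within 1 Mb of an end lay 15 regions (2.35%, 1.43 to 3.84) and 139 other peaks (1.60%, 1.36 to 1.89). Counting only the start of the chromosome gave 9 (1.41%, 0.744 to 2.66) and 71 (0.818%, 0.649 to 1.03). The intervals overlap in both counts. Within 2 Mb of an end the shares were 3.76% (2.54 to 5.54) and 3.02% (2.68 to 3.40), which also overlap. Within 5 Mb they were 9.56% (7.52 to 12.1) and 6.95% (6.43 to 7.50), and these intervals do not overlap, by a margin of hundredths of a percentage point. No test was made of this difference. Each wider distance also counts the peaks of the narrower ones, so these shares are not independent. Of the 19 strong peaks with an irradiated peak within 1 kb, 2 lay within 1 Mb of an end (10.5%, 2.94 to 31.4). That interval is wide and overlaps that of the strong nonirradiated-only peaks, so nearness to ends is not shown to be particular to them.

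The region nearest to an end was chr3:6-558, with a score of 147.85 and a width of 553 bases, which began 5 bases after the first position of the chromosome. It was followed by chr7:30319-31021 (score 122.53, 703 bases), 30.3 kb from the start, and chr1:46721-47568 (score 316.52, 848 bases), 46.7 kb from the start. With chr1:263539-264707 (score 2567.4), chromosome 1 had 2 regions of 300 or more within 1 Mb of its start. These were the only 2 of the 72 regions of that score within 1 Mb of any end (2.78%, 0.765 to 9.57).

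Long stretches without any peak had few of the regions, and few of the other peaks, at their borders. Across the autosomes, 23 stretches of at least 1 Mb held no peak of either list, 154.7 Mb in all on 15 chromosomes. The longest, 65.3 Mb, was at chr4:67943574-133248702, followed by chr2:20935723-40651183 (19.7 Mb) and chr19:11817364-23291550 (11.5 Mb). Whether reads could be placed in these stretches was not tested, so they cannot be read as DNA without YY1. Within 500 kb of a stretch lay 2 of 638 regions (0.313%, 0.0860 to 1.14) and 93 of 8680 other peaks (1.07%, 0.876 to 1.31). The intervals overlap. Within 1 Mb of a stretch the order turned, with 2.19% (1.31 to 3.65) of the strong regions and 1.91% of the others. Of the 19 strong peaks with an irradiated peak within 1 kb, 1 lay within 500 kb of a stretch (5.26%, 0.935 to 24.6). That interval is wide.

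The nearest of the set to a stretch were chr13:65080892-65081945 (score 108.65, 1054 bases) at 167 kb, chr19:11467684-11467942 (score 109.35, 259 bases) at 349 kb and chr5:10918728-10919000 (score 103.17, 273 bases) at 539 kb. Beside the 65.3 Mb stretch of chromosome 4 the nearest strong region was 5.72 Mb away, while another peak of the list lay within 0.0950 Mb. No region of 300 or more lay within 500 kb of a stretch, which allows up to 4.17% (3 counts of 72).

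Every autosome held strong nonirradiated-only peaks. Their share of a chromosome's nonirradiated peaks ran from 4.99% on chromosome 4 (34 of 682, interval 3.59 to 6.89) to 9.17% on chromosome 9 (40 of 436, 6.81 to 12.25), around 6.85% over all autosomes. Chromosomes 11 (9.04%, 30 of 332) and 17 (8.77%, 27 of 308) came next to chromosome 9, and chromosome 8 (5.48%, 27 of 493) next to chromosome 4. The intervals of all 20 chromosomes overlapped one another, so no order between them is given by these counts.

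**Figure D5:**
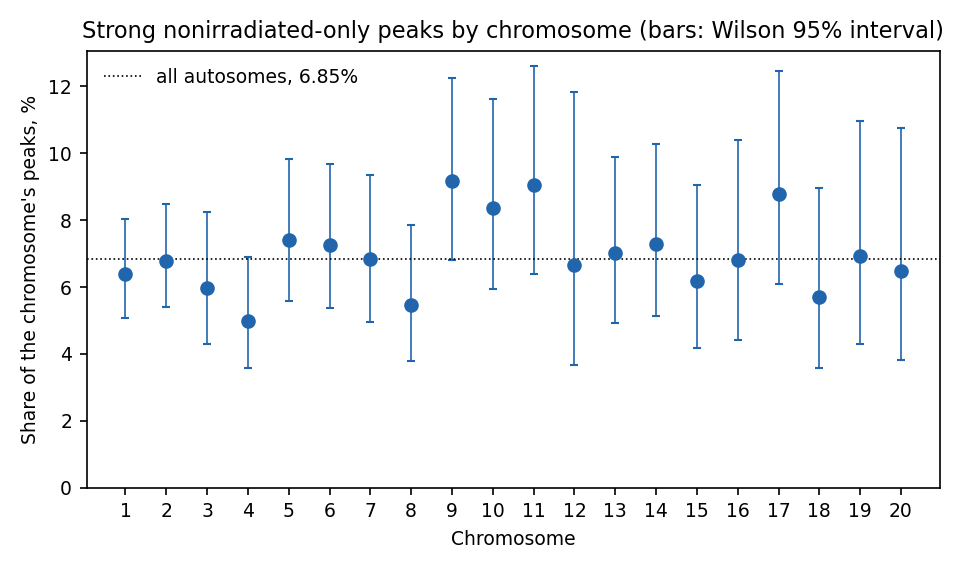
Share of each autosome's nonirradiated peaks that were strong nonirradiated-only peaks, in percent (points, with Wilson 95% intervals as bars); the dotted line is the share over all autosomes, 6.85%. Chromosome 4 is lowest at 4.99% and chromosome 9 highest at 9.17%, and their intervals overlap.

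Chromosome 1 held the most regions of the highest-scoring part. Of the 72 regions of 300 or more, 15 lay on chromosome 1 (20.8%, 13.1 to 31.6), which held 11.4% of the autosomal peaks and 10.7% (8.50 to 13.3) of all 638 regions. The interval of the 72 lies above the 11.4% of the autosomal peaks. It overlaps the interval of the 638 regions, of which the 72 are a part, and no test was made. Chromosome 2 held 70 of the 638 regions but 5 of the 72 (6.94%, 3.003 to 15.3). Chromosome 9 held 7 of the 72 (9.72%, 4.79 to 18.7) and 4.68% of the autosomal peaks. Chromosomes 8, 12, 18 and 20 held none of the 72, and 5.29%, 1.61%, 3.20% and 2.16% of the autosomal peaks in that order. A count of 0 allows up to 4.17% (3 counts of 72), so for chromosomes 12, 18 and 20 it does not show a share below that of the list. The 5.29% of chromosome 8 lies above this limit, but it was 1 of 20 chromosomes looked at and no test was made. Chromosome 1 and the other chromosomes named here were singled out after these counts had been seen.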

How the data were processed

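YY1 ChIP and input DNA of irradiated and nonirradiated rat skin was read as paired ends, per the labels' protocols. The submitters' processing notes name cutadapt 1.9.1, Bowtie2 2.2.4 and rn5. The deposited files are 2 peak lists, 1 per ChIP library. The authors called them with MACS, per the peak identifiers, and the list names set each library against its own input, which was not tested. Column 5 holds the deposited score of each peak. Caller version, caller settings, removal of duplicates and read totals were not given in the sources used here. Depth is thus unknown, and a score or a missing peak depends on it.

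The gap between 2 peaks was the number of bases between their intervals. Gaps were tested on simulated data and against bedtools 2.31.1. Named regions were the 12 highest scores, the 3 widest and narrowest, the 3 nearest to a chromosome end, to a long stretch, to an irradiated peak and farthest from one, the 3 closest pairs, and 3 peaks on each side of the score limit. Others were chosen after their values were seen. The members and measures were chosen with earlier results of these data known. No test between conditions was possible with 1 ChIP library each. Alternatives were other score minimums, counterpart distances and definitions of ends and stretches, removal of the widest 5% of peaks and 1 region per score. Tables and intervals were made with Python 3.11.15 (pandas 2.3.3, scipy 1.17.1, numpy 2.4.6) and figures with matplotlib 3.10.9.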

Additional observations from a re-analysis of the deposited data

How the results depend on the processing

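Of 64 alternative values, 37 stayed inside the interval of the reported value (for the number of regions, within 1.5 times it) and 27 did not. Of the 42 that can be set against the other peaks, 7 fell on the other side of them: the median width at 3 settings, the distance within the list at 2, the distance to the irradiated list at 1 and the share near a stretch at 1. A score minimum of 150, 200 or 80 gave 143, 100 or 1450 regions with a median width of 612, 659 or 516 bases, of which 50.3%, 72.0% or 4.97% scored 300 or more and 0%, 0% or 1.79% lay within 10 kb of another. At 150 and 200, 0% lay within 500 kb of a long stretch, and at 200 the median distance to an irradiated peak was 63.1 kb. With 1 region, the widest, per score, 363 regions remained with a median width of 625 bases, 17.6% at 300 or more and 0% within 10 kb of another. This setting keeps the widest by construction. Without the widest 5% of peaks the median width was 364 bases. A counterpart distance of 10 kb gave a median distance of 62.8 kb, which cannot be lower by construction. The share near another region was 4.39% within 100 kb. The share near an end was 9.56% within 5 Mb and 1.41% for chromosome starts alone, a setting added after seeing the data. At score minimums of 80, 150 or 200, the share within 1 Mb of an end was 1.72%, 2.10% or 3.0%. The other peaks then had 1.64%, 1.65% or 1.64%. For stretches of 500 kb the share was 10.3%, within 100 kb of a stretch 0% and within 1 Mb 2.19%. The cause of changes not fixed by construction was not tested. No paired analysis was possible because each condition has 1 ChIP library. Unknown depth limits what a score or a missing peak shows.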
